A study of Mus musculus with 6 samples.

Results

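Of the 24346 gene symbols in the table, 64 belonged to the axon guidance families and were taken by symbol, with no filter on their values. The families were semaphorins of classes 3 to 7 other than Sema4d, plexins A, C and D, neuropilins, ephrins, Eph receptors, Slits, Robos, netrins and Unc5 receptors. They were chosen with earlier results of these data known. The 64 genes were read in RNA-seq libraries of primary articular chondrocytes, the cells that make joint cartilage, which came from cartilage of ICR mice at postnatal day 4. There were 3 control libraries and 3 libraries of cells stimulated with the protein Sema4D (semaphorin 4D), which binds plexin-B receptors, and the labels name no other difference between the groups. The Sema4D columns of the table are headed as stimulated, and were read as the Sema4D libraries because stimulation with semaphorin 4D is the only one the labels name, so every direction rests on that reading. The dose, duration and source of Sema4D, the control medium and whether animals were pooled are not given in the sources used here. Nothing in the labels says that each library was a separate culture, so p-values cover the spread among these 6 libraries alone, and that spread may be technical.

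Axon guidance cues are secreted or membrane-bound proteins that steer growing axons by attracting or repelling them, and many of them also act on blood vessels, bone and cartilage. Netrins act through the receptors Dcc, neogenin and Unc5, and Slits through Robo receptors. Class 3 semaphorins are secreted and bind a neuropilin that pairs with a signalling plexin, while ephrins sit on the cell surface and bind Eph receptor kinases on a neighbouring cell.

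Expression was read as FPKM, which divides fragments by transcript length and library total, so that levels can be set side by side between genes. The spacing of low FPKM values gave an estimated depth of 1.34e+07 to 1.79e+07 fragments per library, where 1 fragment on 1 kilobase was worth 0.0559 to 0.0746 FPKM. The 8 chondrocyte markers summed to 12906 to 13959 FPKM in control and 10460 to 11331 FPKM in Sema4D libraries, and 7 of them fell. The 7 endothelial markers were near 0, with sums of 0.110 to 0.335 FPKM in control and 0.169 to 0.324 FPKM in Sema4D libraries. Of 9 markers of neurons and glia, 2 were at 0 in every library, and without S100b, which chondrocytes also express, the other 8 summed to 2.21 to 3.18 FPKM in control and 1.84 to 2.32 FPKM in Sema4D libraries. The 6 macrophage markers summed to 22.9 to 30.4 FPKM in control and 19.6 to 22.0 FPKM in Sema4D libraries, mostly Lyz2. Lyz2 and Tyrobp fell (-0.46 and -0.70), Tyrobp from a mean of 1.68 to 0.636 FPKM, and Cd68 was not called. Tyrobp passed the level for testing, a mean of 1 FPKM over the 6 libraries, through the control libraries. Adgre1, too low to be tested, went the other way without overlap, from 0.268, 0.264 and 0.0784 FPKM to 0.750, 0.706 and 0.563 FPKM. The 5 markers of fibroblasts and synovium were abundant, at 3895 to 4194 FPKM in control and 3796 to 3975 FPKM in Sema4D libraries, mostly Col1a1. Among them Pdgfra rose (0.86 on the log2 scale), Dpt and Thy1 fell (-0.95 and -0.15), and Col1a1 was not called. The 4 markers of pericytes and smooth muscle summed to 128 to 139 FPKM in control and 111 to 116 FPKM in Sema4D libraries. Nearly all of this was Cspg4, which was lower (-0.47), and Pdgfrb, which was not called. The other markers of this list, Myh11 and Rgs5, were at most 0.465 and 0.596 FPKM in any library and were not tested. Osteoblast markers summed to at most 4.50 FPKM (Alpl fell, -0.21) and muscle markers to at most 5.80 FPKM (none called). The part of these markers in the results below was not tested. In bulk RNA, fewer cells of a type and less RNA per cell cannot be told apart.

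Guidance genes changed in both directions, with the netrin gene Ntn1, the receptor genes Robo2, Plxnd1 and Nrp2 among the rises and the ephrin gene Efnb2 and most class 3 semaphorin genes among the falls. Of the 64 genes, 43 averaged 1 FPKM or more across the 6 libraries and were tested with limma on log2(FPKM + 1), together with all other genes above that level. At a Benjamini-Hochberg adjusted p under 0.05, 31 of the 43 passed (72.1%), against 46.7% of all 11603 genes tested. Higher with Sema4D were 12 (27.9%, against 24.5% of all genes), and lower were 19 (44.2%, against 22.2%). The groups did not overlap for 36 of the 43, against 56.6% of all genes. The median log2 change of the 43 was -0.16, and that of all genes tested 0.01. Among 25 tested ligand genes 7 rose and 12 fell, and among 18 tested receptor genes 5 rose and 7 fell. Of the calls over all genes, 52.4% were higher, and this share was 38.8% after quantile normalization and 34.5% with columns rescaled to 1000000. After quantile normalization 11 guidance genes were higher (25.6%, against 18.7% of all genes) and 22 lower (51.2%, against 29.4%). With rescaled columns 11 were higher (25.6%, against 17.3%) and 24 lower (55.8%, against 32.8%). Of the guidance genes called, 38.7% were higher, and 33.3% and 31.4% under these scalings.

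**Figure D1:**
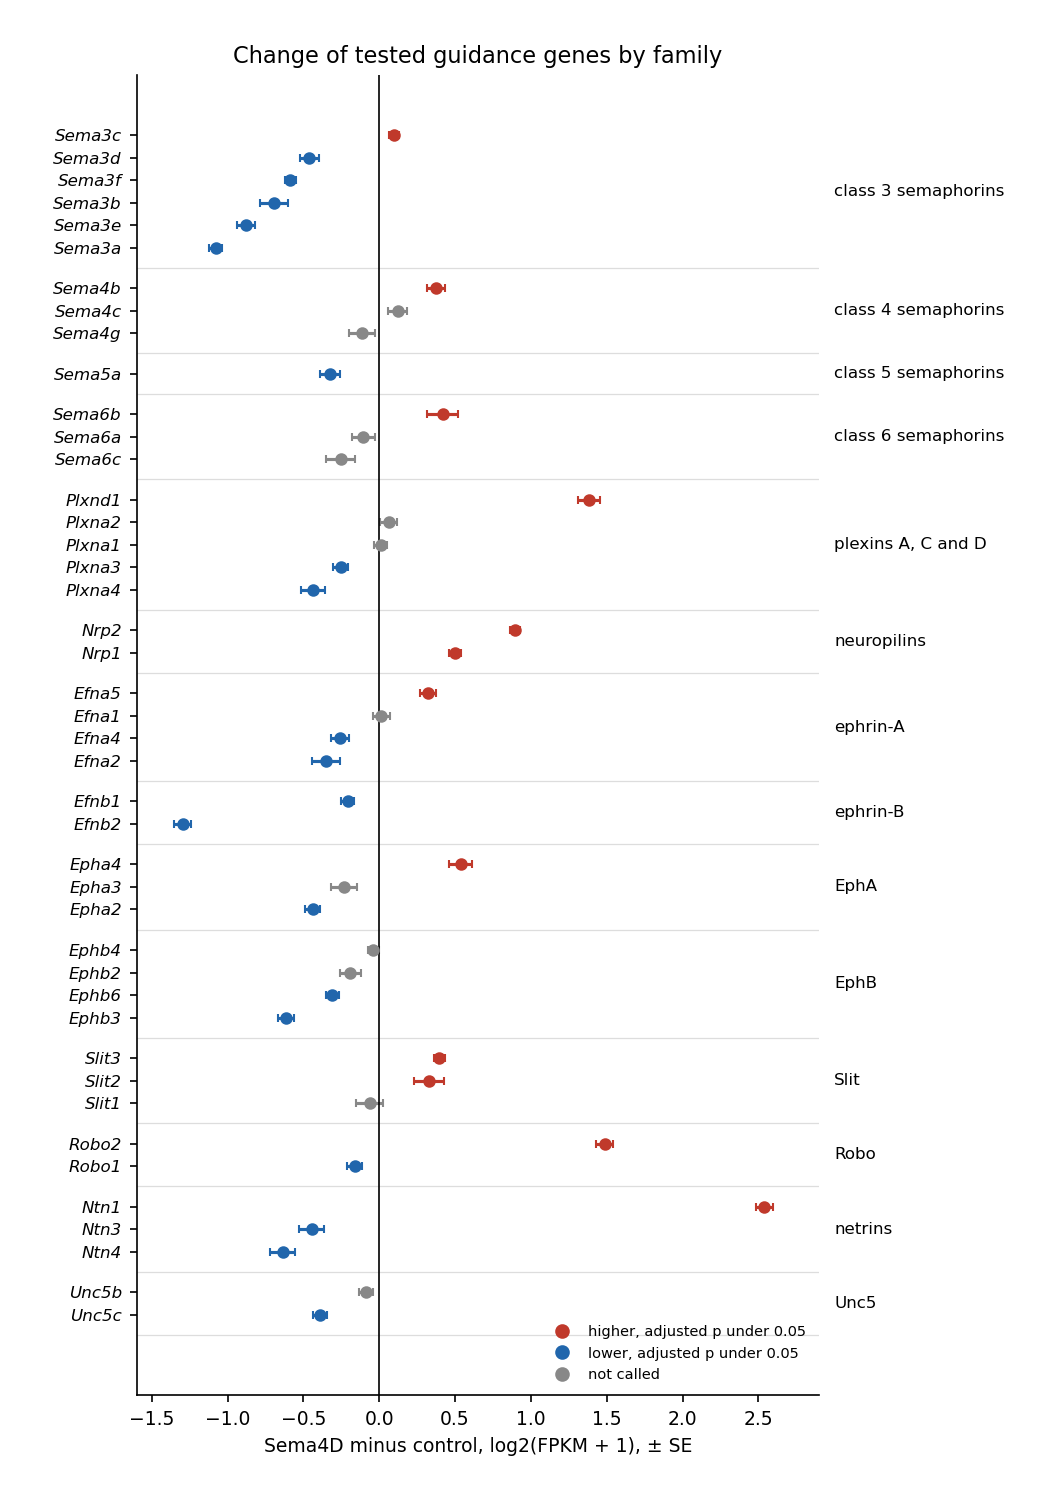
Change of each of the 43 tested guidance genes, as the Sema4D minus control difference in log2(FPKM + 1) on the x axis with its SE, grouped by family and coloured by the limma call. Ntn1 lies farthest to the right at 2.54 and Efnb2 farthest to the left at -1.29, and families such as the netrins and plexins hold genes on both sides of 0.

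Netrin-1 carried the largest rise of the set. Ntn1, which encodes the secreted netrin that attracts or repels according to the receptor it meets (chromosome 11, 68209364 to 68386826 in mm10), stood at 2.02, 2.14 and 2.33 FPKM in control and 18.1, 17.4 and 16.7 FPKM with Sema4D. The lowest Sema4D library was thus far above the highest control library. By the ratio of means it was 8.04-fold higher (log2 change 2.54, SE 0.056, limma adjusted p = 8.39e-09). The other netrins went the opposite way. Ntn4, a netrin related to the laminins of basement membranes (chromosome 10, 93641049 to 93745972), was the most abundant netrin gene in control, at 3.63, 4.65 and 4.49 FPKM, and stood at 2.32, 2.46 and 2.33 FPKM with Sema4D. It fell by 0.64 on the log2 scale (SE 0.084, adjusted p = 0.000369), and its groups did not overlap. Ntn3, a smaller relative of netrin-1, fell from 1.78, 1.77 and 1.62 FPKM to 0.864, 1.13 and 1.02 FPKM (-0.44, adjusted p = 0.00266), the weakest of the netrin calls. Ntn5 was at most 0.0477 FPKM in any library and was not tested.

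The makeup of the family changed with these shifts. Summed netrin FPKM was 8.18 ± 0.616 in control and 20.8 ± 0.664 with Sema4D (mean ± SD over the 3 libraries of each group, as in all such pairs). Ntn1 took 24.9% to 27.5% of it in the control libraries and 82.9% to 84.9% in the Sema4D libraries. Ntn4 took 48.6% to 54.2% in control and 10.9% to 11.7% with Sema4D. These shares restate the 3 single-gene changes and were not tested.

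Netrin receptors showed no such rise. Unc5c, an Unc5 receptor tied to repulsion (chromosome 3, 141465564 to 141834924), fell from 11.2, 11.1 and 11.6 FPKM to 8.19, 8.78 and 8.17 FPKM (-0.39, SE 0.045, limma adjusted p = 0.000162). Its groups did not overlap. Unc5b, also a dependence receptor, was at 11, 11.7 and 11 FPKM in control and 10.9, 10.2 and 10.6 FPKM with Sema4D, and was not past the threshold (-0.09, 95% interval -0.19 to 0.02, adjusted p = 0.147). Unc5a reached at most 0.126 FPKM and Unc5d 0.0082 FPKM, both under the level for testing. Among the partner genes listed for these pathways, neogenin (Neo1) fell from 45.5 ± 0.681 to 36.9 ± 0.562 FPKM (-0.29, adjusted p = 7.67e-05), and Dcc was at most 0.0146 FPKM in any library.

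**Figure D2:**
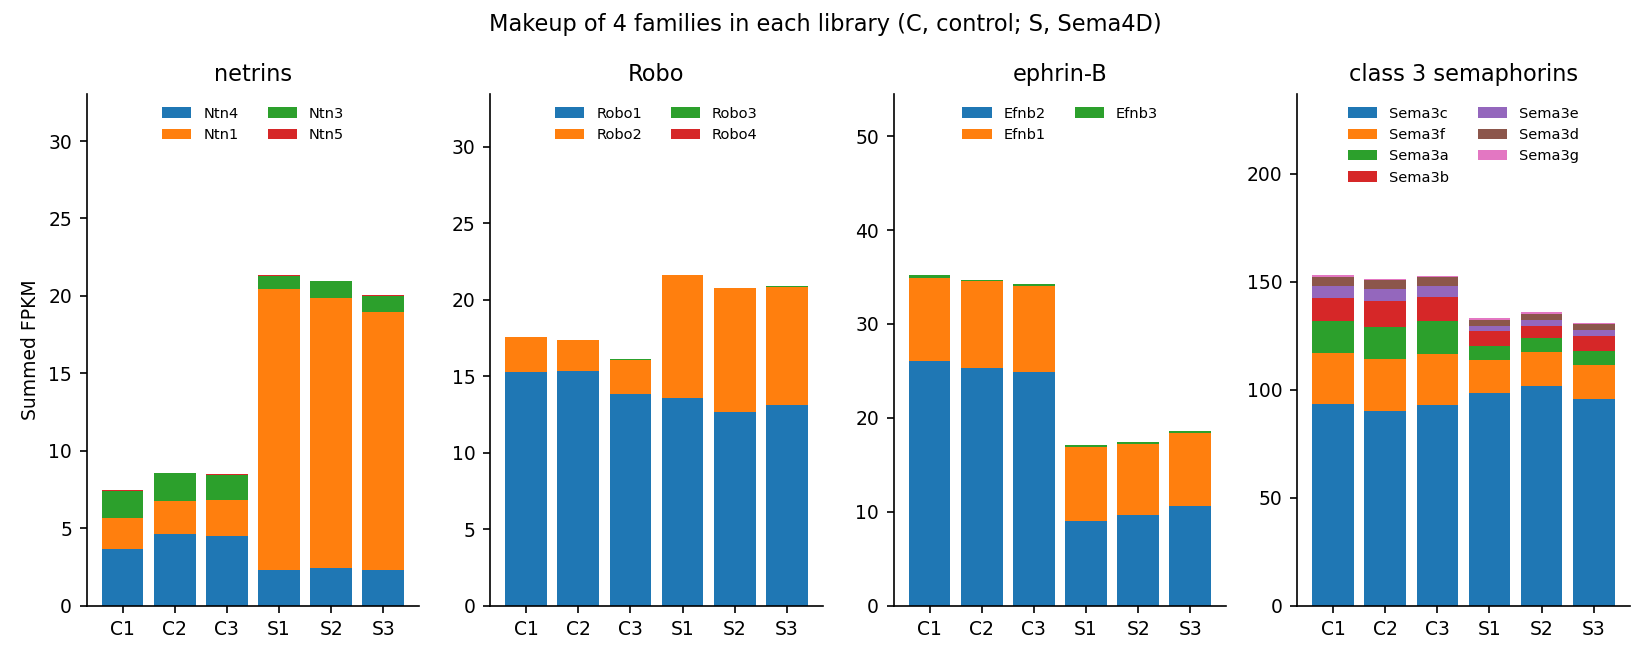
Summed FPKM of the netrin, Robo, ephrin-B and class 3 semaphorin families in each library (y axis, FPKM; C1 to C3 control, S1 to S3 Sema4D), stacked by gene. Ntn1 fills over 82% of the netrin bars in the Sema4D libraries, Robo2 grows beside a nearly level Robo1, Efnb2 shrinks, and Sema3c is the largest part of the class 3 bars in all 6 libraries.

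In the Slit and Robo families Robo2 and Slit3 rose, and the calls of Robo1 and Slit2 were close to the threshold. Robo2, a receptor for Slit proteins (chromosome 16, 73891976 to 75447443), stood at 2.28, 2.04 and 2.27 FPKM in control and at 8.05, 8.08 and 7.71 FPKM with Sema4D. Every Sema4D library was above every control library, and the ratio of means was 3.62 (log2 change 1.49, SE 0.056, limma adjusted p = 1.77e-07). Robo1, the more abundant receptor, which lies 0.844 megabases from Robo2 on the same chromosome (72027518 to 73047491), was at 15.3, 15.3 and 13.8 FPKM in control and 13.6, 12.7 and 13.1 FPKM with Sema4D. It fell narrowly (-0.16, adjusted p = 0.0301). That call was lost without control replicate 1 (adjusted p = 0.0909) or 2 (0.0985) and without Sema4D replicate 2 (0.0956) or 3 (0.068). Over its alternatives the adjusted p ran from 0.00386 to 0.0985. Robo2 thereby went from 11.7% to 14.1% of Robo FPKM in control to 36.9% to 38.9% with Sema4D. Robo3 and the endothelial receptor gene Robo4 were at 0 in 3 and 5 of the 6 libraries and below 0.06 FPKM in the rest.

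Slit3, by far the most abundant Slit gene (chromosome 11, 35121456 to 35708507), rose from 19.4, 20.3 and 19.6 FPKM to 27.0, 26.0 and 26.0 FPKM (0.40 on the log2 scale, SE 0.035, limma adjusted p = 3.43e-05). The groups did not overlap, and Slit3 made up 87.0% to 90.1% of Slit FPKM in all 6 libraries. Slit2 stood at 0.758, 0.758 and 0.971 FPKM in control and 1.33, 1.48 and 1.10 FPKM with Sema4D (0.33, adjusted p = 0.0237). It passed the level for testing through the Sema4D libraries, and its call was lost without control replicate 1 (adjusted p = 0.0628) or 2 (0.0633) and without Sema4D replicate 1 (0.06) or 2 (0.0702). Over its alternatives the adjusted p ran from 0.0157 to 0.0702. Slit1 was not past the threshold (-0.06, 95% interval -0.27 to 0.14), with 1.57 to 2.15 FPKM in control and 1.68 to 1.79 FPKM with Sema4D.

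The tested class 3 semaphorin genes fell with a single exception. Of the 6 tested, 5 fell and 1 was higher (83.3% and 16.7%, against 22.2% and 24.5% of all genes), with a median log2 change of -0.64. Sema3g, too low to be tested, was at 0.590 ± 0.0678 FPKM in control and 0.608 ± 0.121 FPKM with Sema4D, with overlapping groups. Sema3a, whose product collapses axon growth cones through Nrp1 and plexin-A receptors (chromosome 5, 13124822 to 13603485), fell from 14.7, 14.7 and 15.3 FPKM to 6.42, 6.84 and 6.35 FPKM. Its control level was 2.28-fold its Sema4D level (log2 change -1.08, SE 0.045, limma adjusted p = 3.08e-07). Sema3e, the semaphorin that can bind plexin-D1 without a neuropilin (chromosome 5, 14025276 to 14256689), fell from 5.45, 5.42 and 5.16 FPKM to 2.38, 2.38 and 2.60 FPKM, a 2.18-fold lower mean (-0.88, SE 0.058, adjusted p = 5.35e-06). In both genes the groups were wide apart compared with the spread inside them.

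Sema3f and Sema3b lie 72.3 kilobases apart on chromosome 9 (107681499 to 107710475 and 107597674 to 107609241). Sema3f, which prefers Nrp2, fell from 23.7, 24.0 and 23.7 FPKM to 15.2, 15.6 and 15.9 FPKM (-0.59, SE 0.034, limma adjusted p = 2.63e-06). Sema3b fell from 10.6, 12.2 and 11 FPKM to 7.14, 5.59 and 7.10 FPKM (-0.69, SE 0.090, adjusted p = 0.000334), with Sema4D replicate 2 the lowest. Sema3d also fell, from 4.29 ± 0.197 to 2.85 ± 0.209 FPKM (-0.46, adjusted p = 0.000528).

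Sema3c, also a neuropilin ligand (chromosome 5, 17574816 to 17730268), was the most abundant of these semaphorin genes and the exception. It stood at 93.5, 90.1 and 92.9 FPKM in control and 98.4, 102 and 95.7 FPKM with Sema4D, a log2 change of 0.10 (SE 0.032, limma adjusted p = 0.0382). That call was lost without control replicate 2 (adjusted p = 0.115) or 3 (0.0743), without Sema4D replicate 1 (0.0849) or 2 (0.122), after quantile normalization (0.371) and with rescaled columns (0.742). Over its alternatives the adjusted p ran from 0.0265 to 0.742. Sema3d, Sema3a and Sema3e follow each other on chromosome 5 with gaps of 0.536 and 0.422 megabases, and Sema3c lies 3.32 megabases farther on. The 3 neighbours fell, and Sema3c did not. Summed over the class, FPKM was 152 ± 0.845 in control and 133 ± 2.51 with Sema4D, and without Sema3c 60.2 ± 0.968 and 34.6 ± 0.519.

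**Figure D3:**
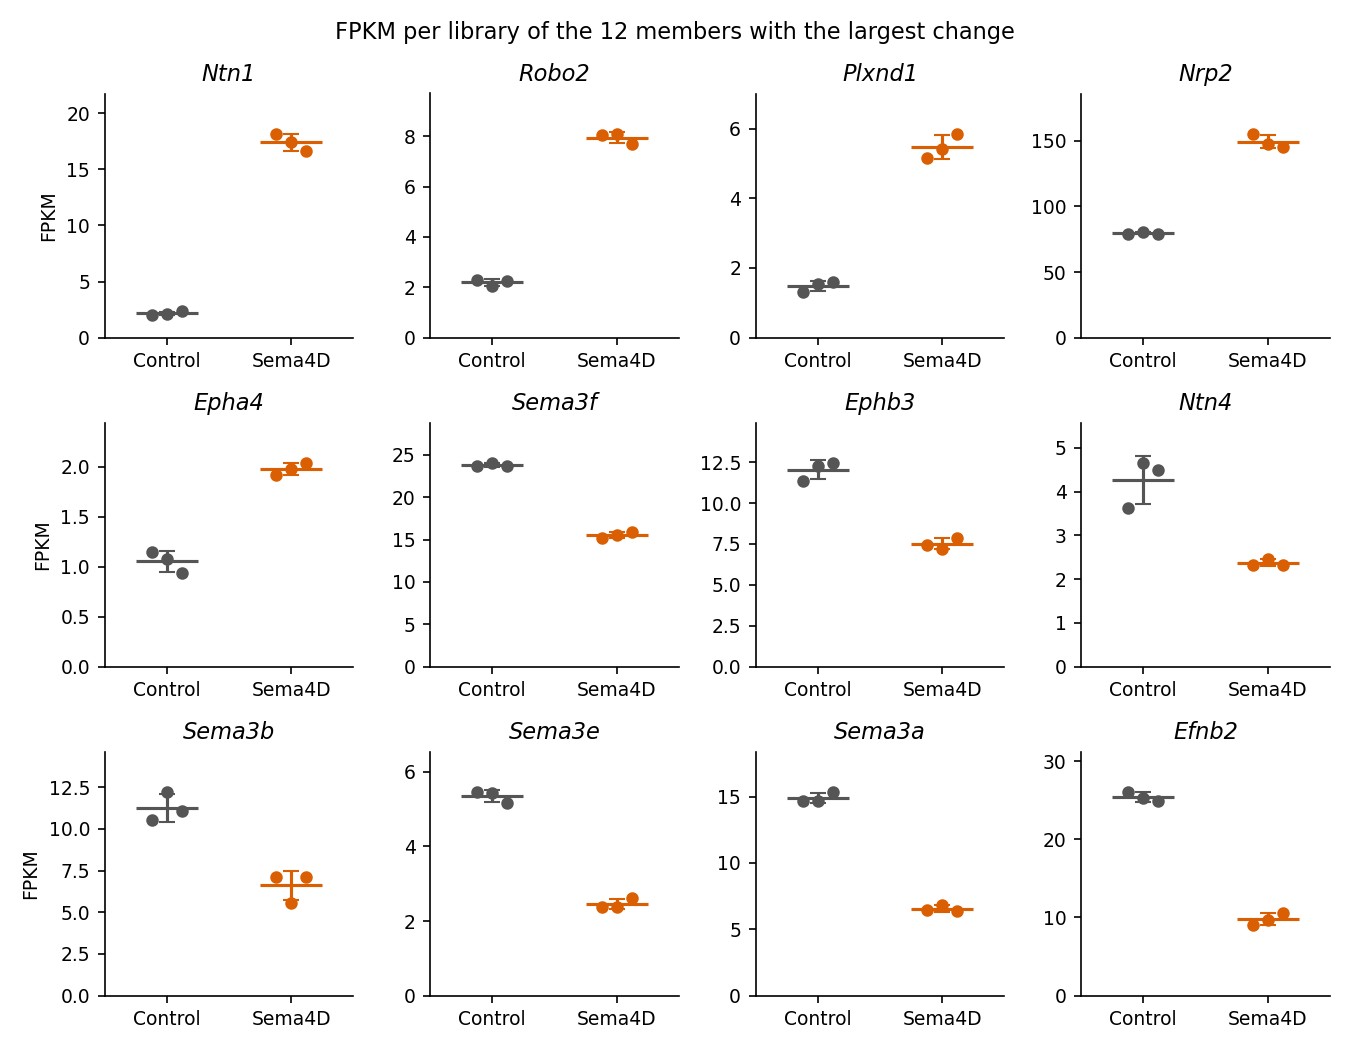
FPKM in each library (points), with the group mean and SD (bars), for the 12 guidance genes with the largest change among those past the threshold; each y axis starts at 0 and has its own range. Ntn1, Robo2, Plxnd1, Nrp2 and Epha4 are higher in every Sema4D library than in any control library, and Sema3f, Ephb3, Ntn4, Sema3b, Sema3e, Sema3a and Efnb2 are lower.

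Both neuropilin genes rose, while 5 of the 6 tested genes for their class 3 ligands fell. Nrp2, the co-receptor for Sema3f and for lymphatic growth factors (chromosome 1, 62703317 to 62818692), was the most abundant guidance receptor gene, at 79.2, 80.7 and 79.2 FPKM in control and 155, 147 and 145 FPKM with Sema4D. Its mean was 1.87-fold higher, with no overlap (log2 change 0.90, SE 0.031, limma adjusted p = 1.18e-07). Nrp1, the co-receptor for Sema3a and for vascular endothelial growth factor (chromosome 8, 128358591 to 128505476), rose from 15.3, 16.5 and 16.1 FPKM to 22.9, 23.4 and 22.7 FPKM (0.50 on the log2 scale, SE 0.040, adjusted p = 1.67e-05). Nrp2 made up 83.0% to 83.8% of neuropilin FPKM in control and 86.3% to 87.1% with Sema4D.

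Plxnd1, the plexin that Sema3e binds and a receptor best known from blood vessels (chromosome 6, 115954811 to 115995339), rose from 1.32, 1.54 and 1.59 FPKM to 5.17, 5.43 and 5.84 FPKM, a 3.69-fold higher mean (1.38, SE 0.071, limma adjusted p = 1.25e-06). The 7 endothelial markers were each at most 0.174 FPKM in any library, and their part in the Plxnd1 rise was not tested. The plexin-A genes, signalling partners of the neuropilins, did not share this rise. Plxna1, the most abundant (chromosome 6, 89316313 to 89362613), was at 23.4, 25.5 and 25.1 FPKM in control and 24.6, 24.6 and 25.3 FPKM with Sema4D (0.01, 95% interval -0.08 to 0.10, adjusted p = 0.872). Plxna2 was at 4.73, 4.91 and 5.11 FPKM in control and 5.46, 4.94 and 5.14 FPKM with Sema4D (0.06, 95% interval -0.06 to 0.19, adjusted p = 0.385). Plxna3 fell from 8.68 ± 0.443 to 7.11 ± 0.139 FPKM (-0.25, adjusted p = 0.00323). Plxna4 fell from 1.35 ± 0.0567 to 0.733 ± 0.0171 FPKM (-0.44, adjusted p = 0.00196) and passed the level for testing through the control libraries. Plxnd1 made up 3.34% to 3.73% of the FPKM of plexins A, C and D in control and 11.9% to 13.2% with Sema4D.

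The stretches before the starts of Nrp2, which rose, and Sema3e, which fell, are shown to set a promoter rich in CG pairs beside one poor in them. They run from 250 to 51 bases before the RefSeq start in GRCm38.p6, the assembly of mm10, and are written 5′ to 3′ on the gene's own strand. Capitals mark the GC box GGGCGG, on either strand, where CCGCCC is the box on the other strand and boxes may overlap. Nrp2 (chr1:62703067-62703266, plus strand) holds 4 boxes here, and Sema3e (chr5:14025026-14025225, plus strand) holds 0 in this stretch, although further boxes lie nearer the start in both genes.
Nrp2: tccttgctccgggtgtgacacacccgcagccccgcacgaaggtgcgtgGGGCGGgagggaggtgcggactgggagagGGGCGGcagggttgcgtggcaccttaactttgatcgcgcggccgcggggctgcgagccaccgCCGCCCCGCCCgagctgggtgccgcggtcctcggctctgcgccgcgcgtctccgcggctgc
Sema3e: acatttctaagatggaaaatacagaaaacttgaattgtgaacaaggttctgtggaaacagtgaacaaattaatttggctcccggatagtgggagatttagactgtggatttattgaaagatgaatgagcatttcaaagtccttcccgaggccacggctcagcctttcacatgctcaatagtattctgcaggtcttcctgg
The full window of 250 bases before the start thus holds 5 GC boxes and 32 CG pairs in Nrp2, and 2 GC boxes and 7 CG pairs in Sema3e.

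Promoters were searched over the 250 bases before each start, on both strands, in the RefSeq table, which had 43 promoters for 36 of the 43 tested genes. The GC box was in 31 of these 43 promoters (72.1%), in 59.4% of the promoters of all tested genes and in 32.7% of all 32851 promoters. It was in 12 of 15 promoters of genes that rose and 10 of 16 promoters of genes that fell. The AP-1 motif TGANTCA was in 1 of the 15 and 0 of the 16, against 4.28% of the promoters of tested genes. The kappaB motif was in 0 of the 15 and 0 of the 16, against 4.55%, and in 2 of 12 promoters of genes that were not called. The median number of CG pairs in the window was 20 for genes that rose, 12.5 for genes that fell and 16 for the promoters of all tested genes. A match or its absence describes these letters in this window and nothing more.

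In classes 4 to 6, 2 of 7 tested genes rose and 1 fell, while 24.5% of all genes tested rose and 22.2% fell. Sema4b, a transmembrane semaphorin, rose from 3.96, 4.08 and 4.44 FPKM to 5.93, 5.75 and 5.40 FPKM (0.37 on the log2 scale, SE 0.059, limma adjusted p = 0.00107). Sema4c, the most abundant class 4 gene measured here and a ligand of plexin-B2, was at 6.09, 6.06 and 6.10 FPKM in control and 7.19, 6.09 and 6.89 FPKM with Sema4D. Its groups overlapped, and it was not past the threshold (0.12, 95% interval -0.02 to 0.26, adjusted p = 0.14). Sema4g was not called either (-0.11, 95% interval -0.31 to 0.09). Sema5a, which carries thrombospondin repeats (chromosome 15, 32244813 to 32696341), fell from 3.30, 2.97 and 3.10 FPKM to 2.13, 2.38 and 2.35 FPKM (-0.33, adjusted p = 0.00415).

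In class 6, whose members are transmembrane ligands of plexin-A receptors, 1 of 3 tested genes was called (33.3%, against 46.7% of all genes). Sema6b rose from 1.02 ± 0.201 to 1.69 ± 0.215 FPKM (0.42 on the log2 scale, SE 0.10, limma adjusted p = 0.0107). Sema6c was just outside the threshold (-0.25, adjusted p = 0.0602), at 1.67, 1.40 and 1.45 FPKM in control and 0.903, 1.29 and 1.13 FPKM with Sema4D. Sema6a, the most abundant of the class in control, was at 1.66, 1.41 and 1.59 FPKM there and 1.35, 1.36 and 1.40 FPKM with Sema4D (-0.10, 95% interval -0.28 to 0.07). The only class 7 gene, Sema7a, whose membrane-anchored product binds integrins and plexin-C1, reached 0.0559 to 0.0971 FPKM in control and 0.0857 to 0.199 FPKM with Sema4D, too low to be tested.

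Of 3 ephrin-B genes 2 were tested and both fell, while Efnb3 stayed below 0.35 FPKM in every library, with overlapping groups. Efnb2, the transmembrane ephrin that marks arteries and binds EphB receptors (chromosome 8, 8617235 to 8661242), had the largest fall of the set. It stood at 26.0, 25.3 and 24.9 FPKM in control and 9.02, 9.70 and 10.6 FPKM with Sema4D. All 3 Sema4D libraries were below all control libraries, and the control mean was 2.60-fold the Sema4D mean (log2 change -1.29, SE 0.056, limma adjusted p = 4.23e-07). Efnb1, its relative on the X chromosome (99136061 to 99149022), fell by less, from 8.83, 9.22 and 9.24 FPKM to 7.93, 7.56 and 7.74 FPKM (-0.21, SE 0.043, adjusted p = 0.00471). Efnb2 made up 72.5% to 73.9% of ephrin-B FPKM in control and 52.6% to 57.2% with Sema4D, and the family's sum went from 34.7 ± 0.460 to 17.7 ± 0.750 FPKM.

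The stretch before the start of Efnb2 is shown because this gene fell most and its promoter, like that of Nrp2, is rich in CG pairs. It runs from 250 to 51 bases before the RefSeq start (chr8:8661293-8661492, minus strand, GRCm38.p6), is written 5′ to 3′ on the gene's strand, and has the 2 GC boxes of this stretch in capitals.
Efnb2: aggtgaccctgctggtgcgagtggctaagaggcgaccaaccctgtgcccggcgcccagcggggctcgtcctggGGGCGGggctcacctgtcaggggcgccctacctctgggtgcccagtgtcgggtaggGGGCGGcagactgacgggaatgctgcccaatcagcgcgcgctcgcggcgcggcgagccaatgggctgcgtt
The full window of 250 bases holds 3 GC boxes and 27 CG pairs.

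Of the 4 tested ephrin-A genes, which encode lipid-anchored ligands of EphA receptors, 1 rose and 2 fell (25% and 50%, against 24.5% and 22.2% of all genes). Efna5 rose from 7.35 ± 0.303 to 9.44 ± 0.411 FPKM (0.32 on the log2 scale, SE 0.050, limma adjusted p = 0.000967). Efna2, at 2.16, 2.86 and 2.70 FPKM in control and 1.85, 1.64 and 1.88 FPKM with Sema4D, fell by 0.35 on the log2 scale (adjusted p = 0.0137). Efna4 fell from 3.87 ± 0.226 to 3.08 ± 0.0940 FPKM (-0.26, adjusted p = 0.00857). Efna1, the most abundant ephrin-A gene, was at 17.3, 19.9 and 18.6 FPKM in control and 18.0, 19.3 and 19.2 FPKM with Sema4D (0.01, 95% interval -0.11 to 0.14, adjusted p = 0.851). The sum of the family was 33.0 ± 1.22 FPKM in control and 33.6 ± 0.406 FPKM with Sema4D.

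Among the EphB receptors, Ephb3, a receptor kinase for ephrin-B ligands (chromosome 16, 21204620 to 21223309), fell from 11.4, 12.3 and 12.4 FPKM to 7.46, 7.20 and 7.87 FPKM (-0.61, SE 0.052, limma adjusted p = 2.37e-05). Ephb6, whose kinase domain is inactive, fell from 10.7 ± 0.178 to 8.48 ± 0.284 FPKM (-0.31, adjusted p = 0.000478). Ephb4, the receptor known for pairing with ephrin-B2 in vessels and the most abundant EphB gene in control, was at 16.8, 17.6 and 16.7 FPKM there and 17.0, 16.5 and 16.2 FPKM with Sema4D. It was not past the threshold (-0.04, 95% interval -0.13 to 0.05, adjusted p = 0.45), except with rescaled columns (-0.12, adjusted p = 0.0334). Over its alternatives the adjusted p ran from 0.0334 to 0.77. Ephb2 was just outside the threshold, at 5.60, 5.13 and 5.65 FPKM in control and 5.01, 4.15 and 4.86 FPKM with Sema4D (-0.19, adjusted p = 0.0599).

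Of the 9 EphA genes, 3 were tested. Epha2, the most abundant (chromosome 4, 141301221 to 141329384), fell from 24.8, 28.1 and 27.4 FPKM to 20.1, 18.9 and 19.5 FPKM (-0.44, SE 0.051, limma adjusted p = 0.000174). Epha4, which can bind ephrins of both kinds (chromosome 1, 77367182 to 77515107), rose from 1.15, 1.07 and 0.943 FPKM to 1.92, 1.98 and 2.04 FPKM (0.54 on the log2 scale, SE 0.076, adjusted p = 0.000531). Neither pair of groups overlapped. Epha3, at 1.82, 1.94 and 1.97 FPKM in control and 1.27, 1.47 and 1.71 FPKM with Sema4D, was just outside the threshold (-0.23, adjusted p = 0.0527).

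The 21 genes under the level for testing reached at most 1.33 FPKM in any library, and Epha10 was at 0 in all 6. Just outside that level were Sema4f, Epha7 and Sema6d. Sema4f was at 1.2, 1.33 and 1.09 FPKM in control and 0.916, 0.691 and 0.694 FPKM with Sema4D. Sema6d was at 0.879, 1.19 and 1.12 FPKM in control and 0.731, 0.653 and 0.723 FPKM with Sema4D. Epha7 had overlapping groups, at 0.724, 0.875 and 1.31 FPKM in control and 0.869, 1.12 and 0.672 FPKM with Sema4D. Plxnc1, the receptor of Sema7a, was at 0.638, 0.543 and 0.513 FPKM in control and 0.268, 0.226 and 0.250 FPKM with Sema4D. In Sema4f, Sema6d and Plxnc1, and in Epha5 and Epha8 below 0.12 FPKM, the groups did not overlap. With no filter on low values, limma also called Sema4f, Sema6d, Plxnc1 and Epha5 lower (adjusted p = 0.0147, 0.0229, 0.00126 and 0.0427). In all, 12 of 63 guidance genes were higher in that fit (19.05%, against 17.22% of all 17461 genes) and 23 lower (36.51%, against 15.96%). Epha7 was not called in that fit (-0.06, limma adjusted p = 0.779).

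**Figure D4:**
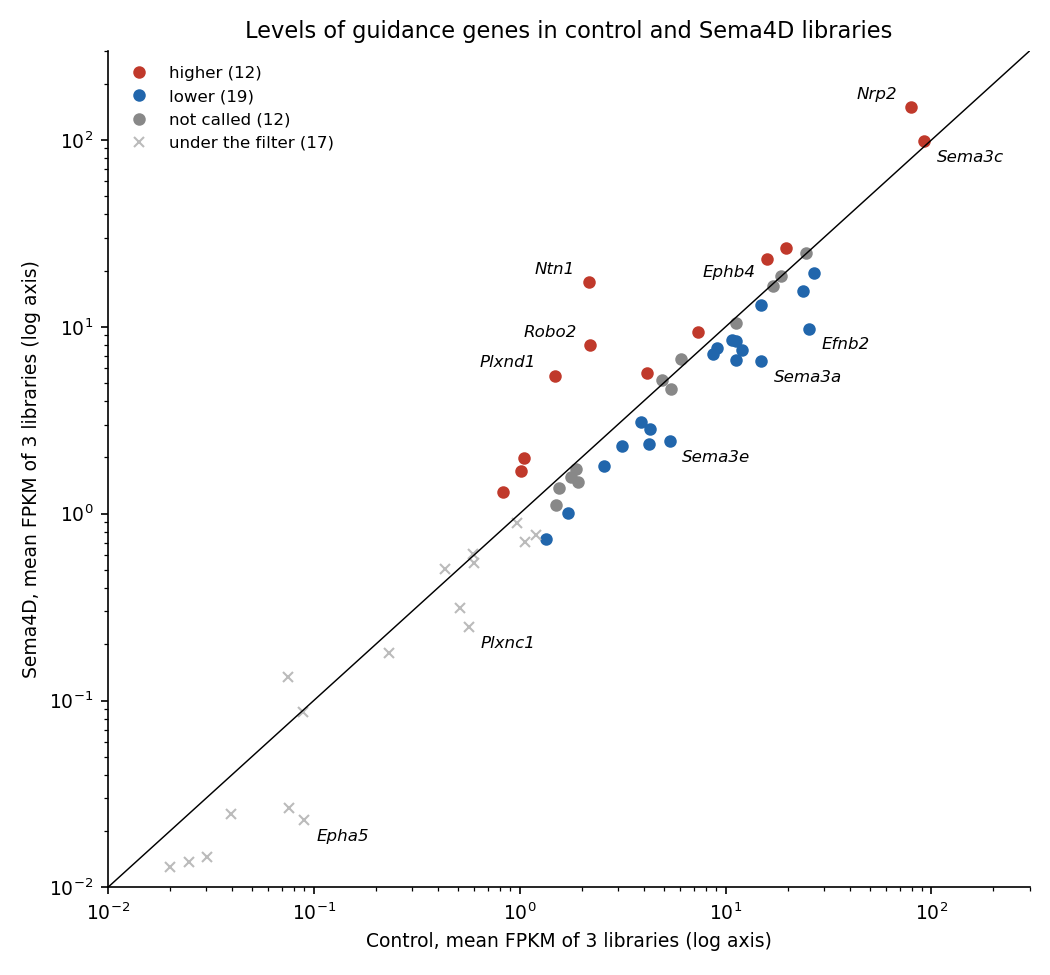
Mean FPKM of 60 of the 64 guidance genes in the 3 control libraries (x axis, log scale) and the 3 Sema4D libraries (y axis, log scale), with the line of equal levels; the 4 genes at or below 0.01 FPKM in either group are left out. Nrp2 and Sema3c are the most abundant, Ntn1, Robo2 and Plxnd1 lie farthest above the line among tested genes, and Efnb2, Sema3a and Sema3e lie below it.

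Partners and effectors of these pathways, taken from a list of 78 symbols chosen with earlier results of these data known, were also mixed. The table held 77, of which 64 were tested, 23 rose and 19 fell (35.9% and 29.7%, against 24.5% and 22.2% of all genes). Their median log2 change was 0.04. The balance turned with the scaling, to 17 higher and 21 lower after quantile normalization and 18 higher and 24 lower with rescaled columns. That of all genes turned likewise, to 18.7% higher and 29.4% lower after quantile normalization and 17.3% and 32.8% with rescaled columns. By role, 6 of 20 plexin effectors rose and 4 fell, 3 of 11 Robo effectors rose and 5 fell, and 1 of 7 Eph effectors rose and 3 fell. Among 8 co-receptors and partners 4 rose and 1 fell, among 5 netrin effectors 2 rose and 2 fell, and among 7 proteases that cut guidance proteins 5 rose and 1 fell. Of the proteases that rose, Rhbdl2 passed the level for testing through the Sema4D libraries (mean 0.790 FPKM in control and 1.31 FPKM with Sema4D). The 6 tested cues and receptors outside the families above included 2 rises and 3 falls.

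On the log2(FPKM + 1) scale the largest rise of that list was that of Rnd1, a small GTPase that binds the cytoplasmic part of plexins. It stood at 2.04, 2.21 and 2.57 FPKM in control and 51.4, 49.7 and 51.7 FPKM with Sema4D (log2 change 3.99, SE 0.061, limma adjusted p = 7.04e-10). Chl1, a cell adhesion molecule that partners neuropilin-1, was near 0 in control at 0.0588, 0.0530 and 0.0315 FPKM and at 2.76, 2.95 and 2.53 FPKM with Sema4D (1.84, adjusted p = 5.65e-07). By the ratio of means Chl1 rose more, 57.5-fold against 22.4-fold for Rnd1, from a control mean of 0.0478 FPKM. Chl1 passed the level for testing through the Sema4D libraries. Sdc4, a heparan sulphate proteoglycan of the cell surface, rose from 85.0 ± 2.60 to 279 ± 8.91 FPKM (1.70, adjusted p = 4.62e-09). Adam17, a protease that sheds membrane proteins, rose from 19.3 ± 0.569 to 46.7 ± 0.844 FPKM (1.23, adjusted p = 3.21e-08).

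Among the tested genes of the list, the largest falls were smaller than these rises on the log2(FPKM + 1) scale. Ngef, the exchange factor ephexin-1 that acts below EphA receptors, fell from 5.25 ± 0.442 to 2.80 ± 0.323 FPKM (-0.72, limma adjusted p = 0.000155). Srgap3, a GTPase-activating protein that binds Robo receptors, fell from 14.2 ± 0.0599 to 9.40 ± 0.139 FPKM (-0.55, adjusted p = 5.86e-06). Lrig3, a transmembrane protein tied to netrin-1 in the inner ear, fell from 47.2 ± 1.42 to 32.9 ± 1.63 FPKM (-0.51, adjusted p = 2.5e-05), and Mical1, an oxidase that acts on actin below plexin-A, from 18.7 ± 0.205 to 13 ± 0.0489 FPKM (-0.49, adjusted p = 7.43e-06). These 8 genes were chosen among called genes whose groups did not overlap.

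**Figure D5:**
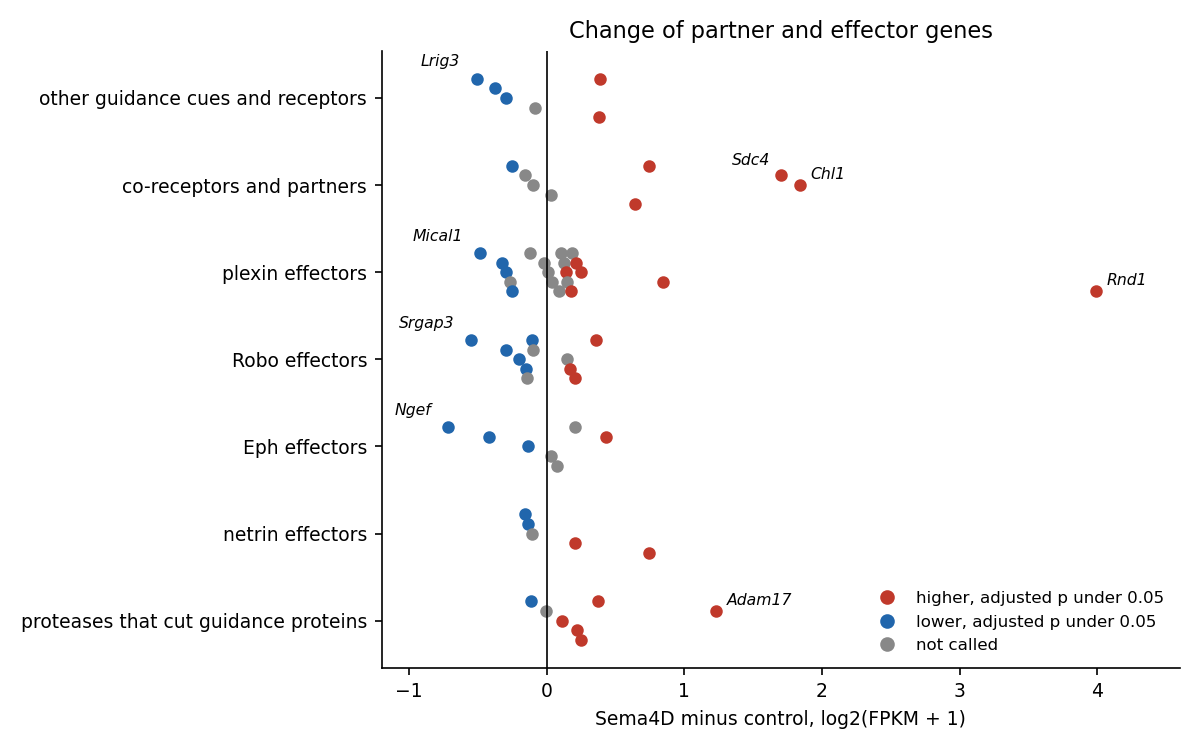
Change of the 64 tested partner and effector genes, as the Sema4D minus control difference in log2(FPKM + 1) on the x axis, by role on the y axis; points are spread vertically for legibility and coloured by the limma call. Rnd1 stands alone at 3.99, Chl1, Sdc4 and Adam17 lie between 1.23 and 1.84, and no fall is larger than the 0.72 of Ngef.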

How the data were processed

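RNA-seq was read in 3 control and 3 Sema4D libraries. The authors deposited FPKM, 1 column per library, and the submitters' processing notes list Cufflinks 2.2.1, TopHat2 2.0.13, SAMtools 0.1.19, Bowtie2 2.2.3 and mm10, with no role or order. The annotation, the strand setting and any scaling between libraries are not given in the sources used here. If strand was not used, reads of overlapping genes cannot be told apart: 18 of the 43 tested guidance genes overlap an annotated gene on the other strand in GENCODE M21. An exact 0 can be a failed estimate.

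Values were taken as log2(FPKM + 1), a scale that understates changes of low genes. Genes averaging 1 FPKM or more were tested with limma 3.58.1 (eBayes with a trend, two-sided, R 4.3.3) in 1 fit over all genes, with Benjamini-Hochberg adjustment. The code was tested on simulated data. FPKM are not counts. Depth came from 226 to 257 low values per library, among 1681 genes with 1 transcript. Depth and fragment length were picked to bring these values near whole fragments. Of the low values 79.5% to 86.3% then lay within 0.15 of a whole fragment, too few to recover counts. That share is part of the fit and is no check of the depth. Identical values made up 0.112% to 0.293% of tested genes between any pair of libraries. Genes, partner list and markers were chosen with earlier results of these data known. Values per library are given for the 12 largest changes, the highest gene and the gene nearest the threshold in each family, and other genes so described were chosen after their values were seen, while the partner list is named by its 4 largest rises and falls. The largest changes, rises and falls were taken among called genes whose groups did not overlap. Positions of whole genes and promoter sequences are RefSeq's (GRCm38.p6). Figures used Python 3.11.15, numpy 2.4.6, pandas 2.3.3 and matplotlib 3.10.9.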

Additional observations from a re-analysis of the deposited data

How the results depend on the processing

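The fit was repeated under 12 alternatives: a pseudocount of 0.1, no filter on low values, a mean of at least 5 FPKM, quantile normalization, columns rescaled to 1000000, a replicate block, and each library left out in turn. Of the 12 guidance genes that rose, 10 kept their call under every alternative that tested them, and so did 18 of the 19 that fell. The exceptions were Sema3c, Slit2 and Robo1. With a mean of at least 5 FPKM, which left 25 guidance genes, 7 rose and 11 fell (28.0% and 44.0%, against 27.3% and 22.8% of all genes). Leaving out 1 library gave 10 to 12 rises and 18 to 19 falls among the guidance genes, and 20 to 21 rises and 14 to 19 falls among the partner genes. Of the 12 guidance genes that were not called, Epha3, Ephb2, Ephb4, Sema4c, Sema6c and Unc5b passed under at least 1 alternative. Direction changed for 4 others of them. Plxna1 was at -0.060 after quantile normalization, -0.071 with rescaled columns and -0.027 to 0.033 with 1 library left out. Efna1 was at -0.053, -0.066 and -0.034 to 0.060 in the same order. Plxna2 was at -0.0062 with rescaled columns, and Slit1 at -0.14 to 0.0072 with 1 library left out. The cause was not tested. Deviations of libraries of the same number correlated at 0.14, -0.08 and -0.05 for numbers 1, 2 and 3, those of different numbers at -0.07 to 0.14, and the labels give no pairing. With the replicate block 10 guidance genes rose and 20 fell (23.3% and 46.5%, against 22.7% and 20.3% of all genes). Sema3c (limma adjusted p = 0.0851) and Slit2 (0.0537) were not called there. Low genes are limited by depth: 1 fragment on 1 kilobase was worth up to 0.0746 FPKM.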
